A study of Drosophila melanogaster with 2 samples.

Results

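Binding of Bowl was described at 10 genes: lin, which encodes the Bowl regulator Lines, and 9 genes of the Wingless (Wnt) pathway, out of 13986 protein-coding genes in the annotation. They were chosen by name, with the listed peaks and their signals already known from earlier results, so the peaks at them are a description and were not tested. The data are chromatin immunoprecipitation sequencing (ChIP-seq) of whole Drosophila melanogaster embryos aged 0 to 24 h that carried a bowl-eGFP fusion transgene, with chromatin precipitated through the GFP tag. Per the labels, the single group of Bowl-eGFP embryos was sampled in 2 biological replicates. No other genotype or treatment was analysed here, and neither was the control chromatin the labels point to. A whole embryo of this age range mixes all tissues and stages, so a peak does not say in which cells Bowl was bound.

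Wingless signalling works through a ligand (Wingless, from wg), receptors of the Frizzled family (fz, fz2), a kinase that marks the transducer Armadillo for destruction (Shaggy, from sgg), and a nuclear complex of Armadillo (arm), Legless (lgs) and the DNA-binding TCF protein Pangolin (pan). Naked cuticle (nkd) and Notum are induced by the pathway and dampen it: Naked cuticle binds the transducer Dishevelled, and Notum is a secreted enzyme that inactivates Wnt ligands. Lines acts in the epidermis and gut and lowers the level of Bowl protein, and Drumstick (drm), a small member of the odd-skipped family, relieves Bowl of Lines.

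Bowl-eGFP peaks lay at 8 of the 10 genes. The strongest were at sgg, lin and nkd, followed by fz, Notum and lgs. Weaker peaks lay at fz2 and wg, while arm and pan had none. A peak here is a region of the authors' pooled thresholded list whose summit lies in the gene body, or whose nearest protein-coding transcription start site (TSS) belongs to the gene. By this rule 10 of the 2198 pooled peaks were at these genes. The genes held 500 pooled candidates, of which 10 (2%) were listed as peaks, close to the 1.66% of all pooled candidates. Over all genes with at least 1 candidate region, 13.8% had a peak. The count of 8 was fixed in part by how the genes were chosen, and long genes hold more candidates. The 10 genes had a median length of 25491 bp and a median of 32 candidates, against 2162.5 bp over all genes and 7 candidates over genes with a candidate. Among genes with 50 or more candidates, 51.5% had a peak, and the 4 such genes here (nkd, sgg, fz and fz2) all did. Among genes with 10 to 49 candidates the share was 20.6%, and Notum, lgs and wg had a peak while arm did not. Among those with 1 to 9 candidates it was 7.68%, and lin had a peak while pan did not.

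The values below are the authors' own for each region: the signal, a score with no stated scale, and the −log10 of the irreproducible discovery rate (IDR), for which 2 stands for an IDR of 0.01. Signals are compared within a list only. The IDR in a replicate's own list comes from that replicate, so it is not a measure of agreement between the replicates. Positions are on the dm6 assembly.

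The lin gene (2R, 8914524 to 8918234, plus strand) carried a single peak close to its start. Its signal was 179 in the pooled list, with a −log10 IDR of 4.18 and rank 257 of 2198. The summit at 8914988 lay 464 bp downstream of the only annotated TSS, in the 5' UTR, and 919 bp from the edge of the divergent gene Pgi, which encodes a glycolytic isomerase. In the replicates' own lists the signal was 130 in replicate 1, where the peak ranked 188 of 1662, and 51.0 in replicate 2, where it ranked 497 of 772. The summits of the replicates lay 3 and 26 bp from the pooled one. The other 6 candidates at lin were weak: the next, in coding sequence 2291 bp from the TSS, had a signal of 40.6 and a −log10 IDR of 0.506. Above the threshold, lin thus had 1 peak, near the start of the transcript.

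The feedback inhibitor nkd (3L, 19003741 to 19045449, minus strand) had a peak at its start and a weaker one deep in an intron. The start peak, with a signal of 177 and a −log10 IDR of 4.15, had its summit 138 bp upstream of the only TSS. Replicate 1 gave it a signal of 116 and replicate 2 a signal of 58.7, and both listed it. The intronic peak, 20445 bp downstream of the TSS, had a signal of 81.4 and a −log10 IDR of 2.10 in the pooled list. Replicate 1 listed it with a signal of 53.0, whereas the overlapping candidate of replicate 2, with a signal of 30.7, had a −log10 IDR of only 0.0554 and was not listed. The start peak was thus listed in both replicates and the intronic one in replicate 1 alone.

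Notum (3L, 16023480 to 16032752, plus strand), the secreted feedback inhibitor, had its peak inside the gene and not at the start. The summit at 16026326 lay in an intron, 2846 bp downstream of the TSS. The signal was 133 in the pooled list, 86.8 in replicate 1 and 44.7 in replicate 2, and each of these lists included it. In replicate 2 the −log10 IDR was 2.16, close to the threshold of 2. A second candidate also in an intron, 1940 bp from the TSS, reached a signal of 49.8 and a −log10 IDR of 1.27. The strongest peak of each inhibitor is shown because the comparison turns on these genes, and those of sgg and fz2 as examples that hold a word searched for. The lin peak also holds one and is not printed. Each is 161 bases centred on the summit, 5' to 3' on the strand of the gene, read from the RefSeq Release 6 genome. Capitals mark a match to the words described further on, and the nkd and Notum stretches hold none.
nkd start peak (chr3L:19045507-19045667, minus strand): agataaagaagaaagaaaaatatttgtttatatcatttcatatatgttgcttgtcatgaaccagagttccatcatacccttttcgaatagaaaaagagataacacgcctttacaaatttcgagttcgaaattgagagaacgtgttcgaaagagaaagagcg
Notum intron peak (chr3L:16026246-16026406, plus strand): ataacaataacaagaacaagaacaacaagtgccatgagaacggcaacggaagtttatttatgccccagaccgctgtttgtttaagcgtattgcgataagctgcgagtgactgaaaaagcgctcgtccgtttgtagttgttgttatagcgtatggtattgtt
sgg internal start peak (chrX:2646359-2646519, plus strand): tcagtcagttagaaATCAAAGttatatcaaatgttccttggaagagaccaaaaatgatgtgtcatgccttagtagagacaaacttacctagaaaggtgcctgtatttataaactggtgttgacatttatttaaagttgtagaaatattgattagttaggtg
fz2 internal start peak (chr3L:19170602-19170762, minus strand): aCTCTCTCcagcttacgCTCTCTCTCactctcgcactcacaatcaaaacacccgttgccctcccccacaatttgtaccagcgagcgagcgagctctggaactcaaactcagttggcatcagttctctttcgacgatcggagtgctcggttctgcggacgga

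**Figure D1:**
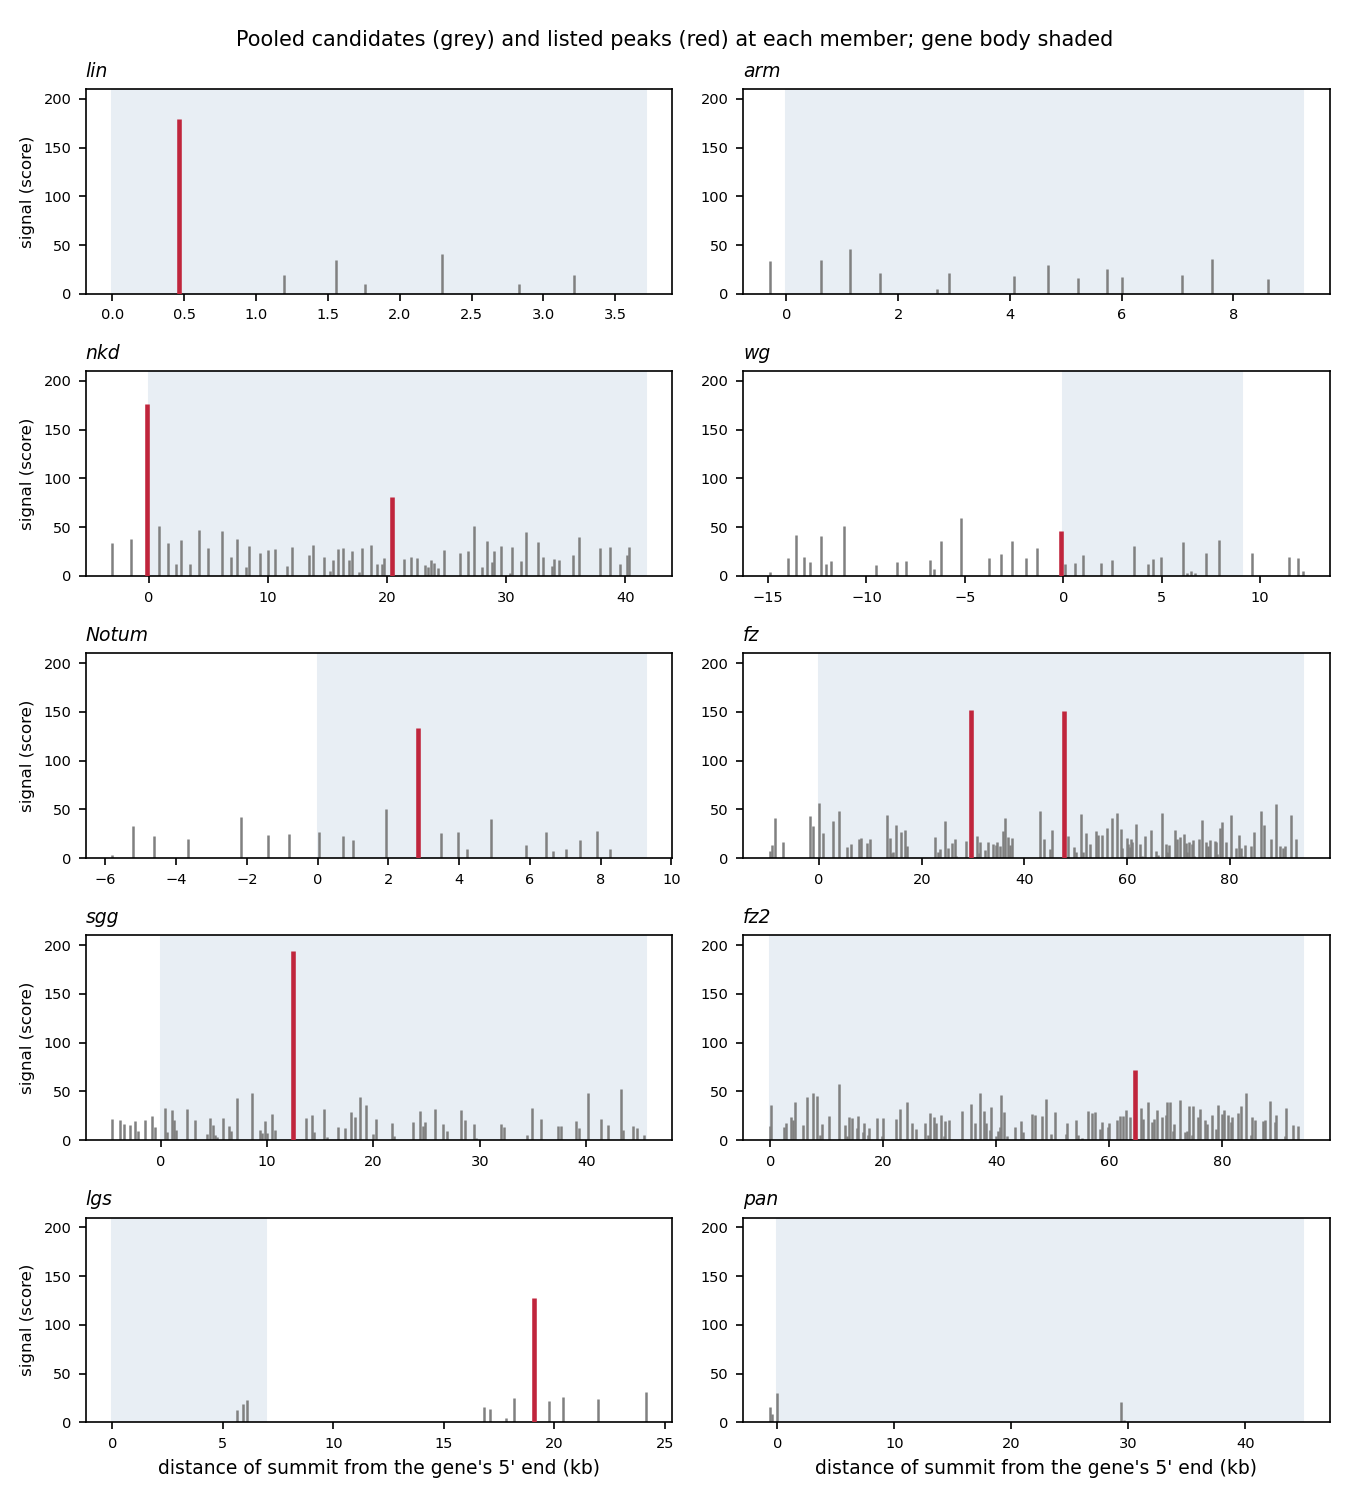
Signal (score, vertical axis) of every pooled candidate at each of the 10 genes, by distance of its summit from the 5' end of the gene in kb (horizontal axis), with listed peaks in red, other candidates in grey and the gene body shaded. The listed peaks of lin, nkd, Notum, sgg, lgs and fz have signals of 128 to 194, apart from the intronic nkd peak of 81.4, and the unlisted candidates at these genes reach at most 56.4; arm and pan have no listed peak.

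The kinase gene sgg (X, 2633952 to 2679553, plus strand) had the highest signal of the 10 genes, 194, with a −log10 IDR of 4.36. The gene has 11 annotated start sites, and the peak was not at the outermost one. Its summit at 2646439 lay 12487 bp into the gene, in an intron, 198 bp upstream of the internal start at 2646637, which serves 1 annotated transcript. The signal was 130 in replicate 1 and 63.6 in replicate 2, and both listed the peak. Of its 76 candidates no other was listed, and the next strongest had a signal of 52.8.

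The lgs peak lay outside the gene. Legless joins Armadillo to the coactivator Pygopus, and its gene is on chromosome 4 (436957 to 443911, minus strand). The summit at 424827 lay 12130 bp beyond the 3' end of lgs, in intergenic sequence. It was assigned to lgs because the lgs TSS, 19084 bp away, is nearer than those of CaMKI (20677 bp) and dati (29222 bp). The signal was 128 in the pooled list, 81.5 in replicate 1 and 48.99 in replicate 2, and all 3 lists held the peak. Within the body of lgs itself no candidate was listed. The 2 replicate summits differed by 4 bp, the smallest difference among the 7 peaks listed in both.

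The receptor genes fz and fz2 differed in the position, signal and replicate support of their peaks. At fz (3L, 14274343 to 14368639, plus strand) a pair of peaks of nearly equal signal, 152 and 151, lay in introns 29690 and 47672 bp downstream of the TSS. Replicate 1 gave them signals of 77.8 and 80.1, and replicate 2 gave 68.1 and 73.8. All 4 replicate values passed the threshold, with −log10 IDR between 3.45 and 3.75. The nearest start site to either summit is that of CG13482, a short gene inside fz, 7331 bp from the second summit and farther from the first, so these peaks belong to fz by position in the gene body only. At the start of fz a candidate of signal 56.4 had a −log10 IDR of 0.162 and was not listed.

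At fz2 (3L, 19140975 to 19235373, minus strand) the pooled peak, with a signal of 72.0 and a −log10 IDR of 2.41, lay 34 bp upstream of an internal start site that serves 5 annotated transcripts. Replicate 1 listed it with a signal of 66.3 and listed a further fz2 peak with a signal of 42.9 in an intron. In replicate 2 no candidate at all overlapped the pooled peak, and the nearest, 579 bp away, had a signal of 24.1. The ligand gene wg (2L, 7307159 to 7316265, plus strand) showed the same pattern. Its peak, 124 bp upstream of the TSS, had a signal of 45.7 and ranked 2104 of 2198. Replicate 1 listed it with a signal of 34.1, and the nearest candidate of replicate 2 was 796 bp away. The fz2 and wg peaks were 2 of 36 pooled peaks, 1.64% of the list, with no overlapping candidate in replicate 2. What set these places apart in replicate 2 was not tested.

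The nuclear effectors arm and pan had no listed peak in any of the 4 lists. The strongest candidate at arm (X, 1891401 to 1900646, minus strand) lay 19 bp downstream of a start site in the 5' UTR, with a signal of 45.6 and a −log10 IDR of 0.955. At the same place the signal was 20.6 in replicate 1 and 21.9 in replicate 2. For pan, the TCF gene (4, 69326 to 114270, plus strand), the strongest pooled candidate lay 64 bp upstream of its TSS with a signal of 29.9 and a −log10 IDR of 0.171. Candidates were few at pan for a gene of 44945 bp: 5 in the pooled list, 15 in replicate 1 and 0 in replicate 2. Of 468 genes of 40 kb or longer, 3 had no candidate in replicate 2 and pan was one of them, against a median of 53 candidates. The strongest candidate of replicate 1, in an intron, had a signal of 34.2 and a −log10 IDR of 1.29 and was not listed, whereas the wg peak that replicate 1 listed had 34.1. By rank, the strongest candidate at pan lay at 3.54% of candidates in replicate 1 and at 20.01% in the pooled list. Chromosome 4, of 1348131 bp, held 285 of the 106305 candidates of replicate 2. Of that replicate's 772 listed peaks it held 1, that of lgs. Whether pan differed from the rest of chromosome 4 was not tested.

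Just inside the threshold, with −log10 IDR of 2.09 and 2.10, were the wg start peak, of signal 45.7, and the intronic nkd peak, of signal 81.4. Just outside the threshold, a candidate 5215 bp upstream of wg had a higher signal than the wg peak, 59.1, and a −log10 IDR of 1.90. The arm candidate, with 45.6 against 45.7 at the wg start, also stayed out. Listing thus followed the IDR and not the signal alone.

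Across replicates, 7 of the 10 peaks were listed in both: those at lin, Notum, sgg and lgs, the start peak of nkd, and both fz peaks. Over the whole pooled list, 29.1% of peaks overlapped a listed peak of both replicates. Replicate 1's list held all 10 of these peaks, against 65.2% of pooled peaks, and replicate 2's list held 7 of 10, against 34.6%. The genes were chosen with these lists known, so such shares are a description and were not tested. Of the 10 peaks, 7 had a signal at or above the pooled list's median of 82.6. The conservative list, a further list of the authors with its own ranked candidates and IDR values, held 8 of 10, against 65.7%. Its ranked candidates were taken here as the list that compares the replicates. The conservative list lacked the wg and fz2 peaks. Their −log10 IDR there was 0.237 and 0.189, against 2.09 and 2.41 in the pooled list. With nkd and fz, 2 of the 10 genes had more than 1 pooled peak, against 3.39% of genes with a candidate. However, nkd and fz held 69 and 125 pooled candidates, against a median of 7 over genes with a candidate. No share among genes with as many candidates was taken. Between replicates the summits of the 7 peaks differed by 4 to 57 bp, with a median of 29 bp, against a median of 22 bp over the 639 pooled peaks whose strongest overlapping candidate was listed in both. The order of the genes was not the same in the replicates. In replicate 1, sgg and lin led, with their strongest candidates at 0.192% and 0.193% of all candidates ranked by signal. In replicate 2, fz led at 0.230%, followed by sgg at 0.306%, nkd at 0.356% and lin at 0.487%. Neighbours such as sgg and lin in replicate 1 cannot be ordered from 2 replicates.

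**Figure D2:**
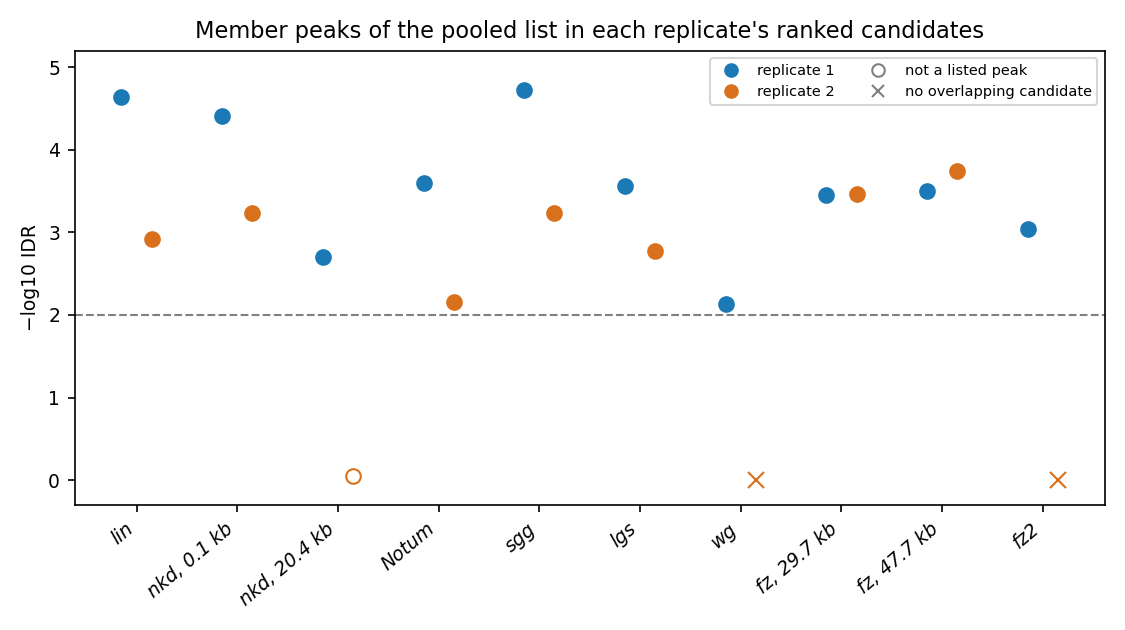
The −log10 IDR (vertical axis) of the candidate of replicate 1 (blue) and replicate 2 (orange) that overlaps each of the 10 pooled peaks (horizontal axis; distance from the 5' end of the gene is given where a gene has a pair of peaks), with open circles for candidates that are not listed peaks, crosses for no overlapping candidate and a dashed line at the threshold of 2. Of the 10 peaks, 7 are above the line in both replicates, and the intronic nkd peak and the wg and fz2 peaks are above it in replicate 1 only.

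Lin and the feedback inhibitors nkd and Notum were set beside the ligand, receptor and TCF genes. All 3 genes of the first set (lin, nkd and Notum) had a peak, and so did 3 of the 4 genes of the second (fz, fz2 and wg, but not pan). In the conservative list, where 10.6% of genes with a candidate had a peak, the counts were 3 of 3 and 1 of 4, the 1 being fz. Without replicate 1, that is in replicate 2's own list (5.7% of genes), they were also 3 of 3 and 1 of 4, and without replicate 2, in replicate 1's list (11.2% of genes), 3 of 3 and 3 of 4. The strongest candidate had a median signal of 177 over lin, nkd and Notum and of 65.5 over wg, fz, fz2 and pan. Over all 13115 genes with a candidate it was 37.9. Each value is a maximum over the candidates of a gene. The 10 genes had a median of 32 candidates, against 7 over genes with a candidate, and no baseline matched for this was taken. The sets overlapped, since fz (152) lay above Notum (133). With so few genes, chosen on these lists, the difference between the sets was not tested.

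**Figure D3:**
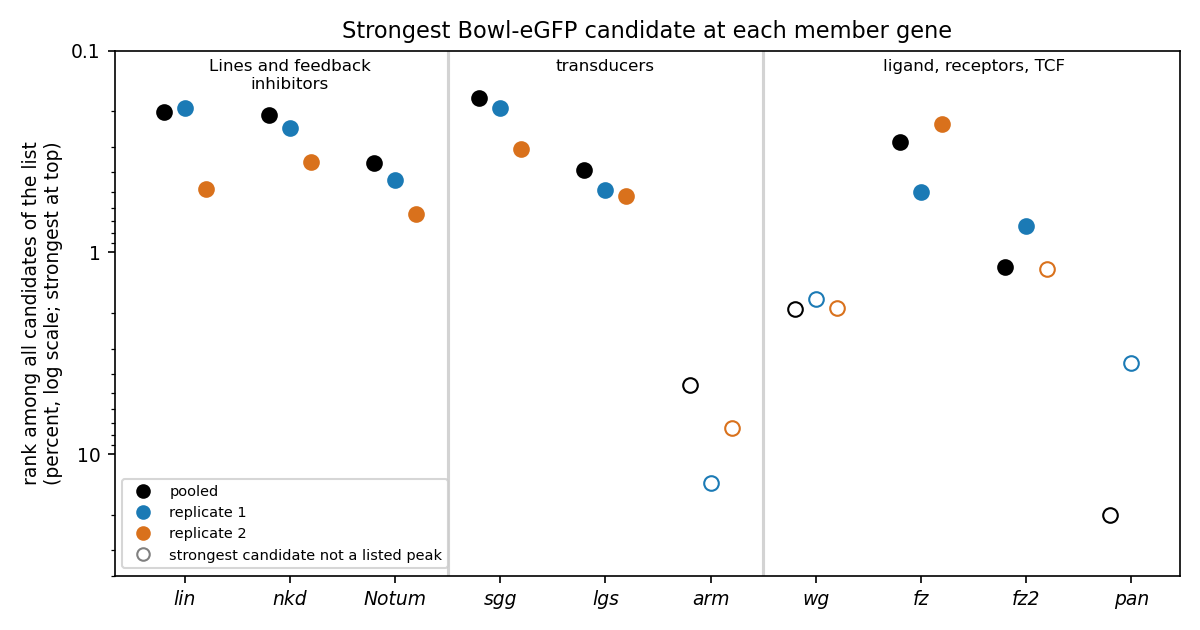
Rank by signal of the strongest candidate at each gene (vertical axis, percent of all candidates in the list, log scale, strongest at the top) in the pooled list (black), replicate 1 (blue) and replicate 2 (orange), with open circles where that candidate is not a listed peak. The points of lin, nkd, Notum, sgg, lgs and fz all lie within the first 0.644% of candidates, and those of arm and pan lie between 3.54% and 20.01%; pan has no point in replicate 2.

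By position, 5 of the 10 peaks had their summit within 500 bp of a start site (lin, nkd, sgg, wg and fz2), 4 lay in introns (nkd, Notum and fz) and 1 was intergenic (lgs). Of all pooled peaks, 49% lay within that distance. At nkd, sgg, wg and fz2 the summit was upstream of the start site, by 34 to 198 bp, and at lin it was downstream. Base composition varied widely. In the 100 bp on either side of the summit, GC made up 60.2% at wg and 57.2% at lin, but 33.8% at the nkd start and 32.3% at lgs, around a median of 38.3% over all peaks.

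Sequence words were searched for on both strands within 100 bp of each summit: CAGTAGC, a core word of the odd-skipped family motif; ACAGTGG, a word taken from earlier results of these data as frequent at the peaks; CTTTGAT, for Pangolin; GCCGCC, the core of its helper site; GAGAGAG, for the GAGA factor; and CAGGTAG, for Zelda. Copies of GAGAGAG may overlap each other. Neither CAGTAGC nor ACAGTGG lay at any of the 10 peaks, 0 of 10, which allows a share of up to 30% (3 counts). They were present at 2.41% (95% Wilson interval 1.85 to 3.14) and 10.3% (9.12 to 11.7) of all pooled peaks, and at 1.90% and 2.90% of candidates that failed the threshold. Within 200 bp of the summit both words were still missing from all 10 peaks. CAGGTAG was not found either, and is in 1.14% of all peaks and 1.30% of failing candidates.

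The Pangolin word lay at 1 of the 10 peaks, that of sgg, on the minus strand at 2646373 to 2646379 with its centre 63 bp from the summit, and appears as ATCAAAG in the sequence printed above. It is in 2.46% of all peaks and 3.29% of failing candidates. The Notum peak had a copy only farther out, 178 bp from the summit. The helper core lay at the lin peak, 36.5 bp from the summit, and is in 8.28% of all peaks and 14.7% of failing candidates. Within 200 bp of the summit, the lin peak held a further copy and the intronic nkd peak held a copy 142.5 bp away. GAGAGAG lay at the fz2 peak in 3 overlapping or close copies with centres 58, 60 and 76 bp from the summit, and is in 6.41% of all peaks and 2.78% of failing candidates. These matches are descriptions of the letters and do not show which factor bound.

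A wider list of 45 genes, the Lines and odd-skipped group with Wnt ligands, receptors, transducers and modulators, places the 10 genes among their pathway. In the pooled list 22 of the 45 had a peak, against the 13.8% of all genes given above, and the 45 genes had a median of 20 candidates. The list includes the 10 genes, and it was written with results of these data known, so its count was not tested. Of the 35 other genes, 14 had a peak, and these 35 had a median of 20 candidates. Over all genes with 10 to 49 candidates, 20.6% had a peak. Without replicate 1 the 22 became 10, where 5.7% of all genes with a candidate had a peak, and without replicate 2 it was 20, where 11.2% did. With weaker peaks set aside (signal below the list's median of 82.6) it was 14, where 7.93% did.

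All 4 genes of the odd-skipped family in the list (bowl, drm, odd and sob) had a peak. The strongest of bowl reached 431, of drm 223, of odd 86.4 and of sob 77.1. Drumstick relieves Bowl of Lines, and each of these 3 genes (bowl, drm and lin) had a peak in the list of each replicate, while odd and sob had none in replicate 2's list. A peak at bowl may come from the transgene or the chromosomal copy, which the lists cannot tell apart.

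Among ligand genes, Wnt5 was the only one besides wg with a peak, of signal 82.0, in an intron of a neighbouring gene 1933 bp upstream of its start. The genes wg, Wnt4, Wnt6 and Wnt10 are neighbours on 2L, and the strongest candidates of Wnt4, Wnt6 and Wnt10 had signals of 55.9, 51.2 and 40.9 and were not listed. Among the receptors, arr, which encodes the LRP-type coreceptor, had 4 peaks, the strongest of signal 100.2, and fz3 had a start peak of signal 68.5. Neither arr nor fz3 had a peak in replicate 2's list, and fz3 had none in replicate 1's list either. The genes fz4, drl, Drl-2, dnt, Ror and otk had no pooled peak. The glypican genes dally and dlp, whose products hold Wingless at the cell surface, had peaks of up to 77.1 and 91.5 in the pooled list. Neither had a peak in replicate 2's list, and dlp had none in replicate 1's list either. The secretion genes wls and por had none.

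The kinase gene gish, a casein kinase of the pathway, had the strongest peak of the pathway genes outside the odd-skipped family, with a signal of 355, 177 bp upstream of an internal start site. Like sgg, gish had a peak in the list of each replicate. CkIalpha, whose kinase primes Armadillo for Shaggy, had a start peak of signal 64.2 that neither replicate listed. The destruction complex genes Axn, Apc and Apc2, the adaptor gene dsh, and slmb and Tnks had no peak, with strongest signals between 34.2 and 57.2. In the nucleus, the corepressor gene gro, whose product Groucho binds Pangolin, had a peak of signal 183, 111 bp upstream of an internal start site. It had a peak in each of the 4 lists. CtBP (strongest peak 84.0) and the kinase gene Hipk (5 peaks, strongest 78.0) had no peak in replicate 2's list. The Legless partner gene pygo and the kinase gene nmo had no peak in any of the 4 lists. At nmo, with 93 pooled candidates, the strongest had a signal of 54.5.

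**Figure D4:**
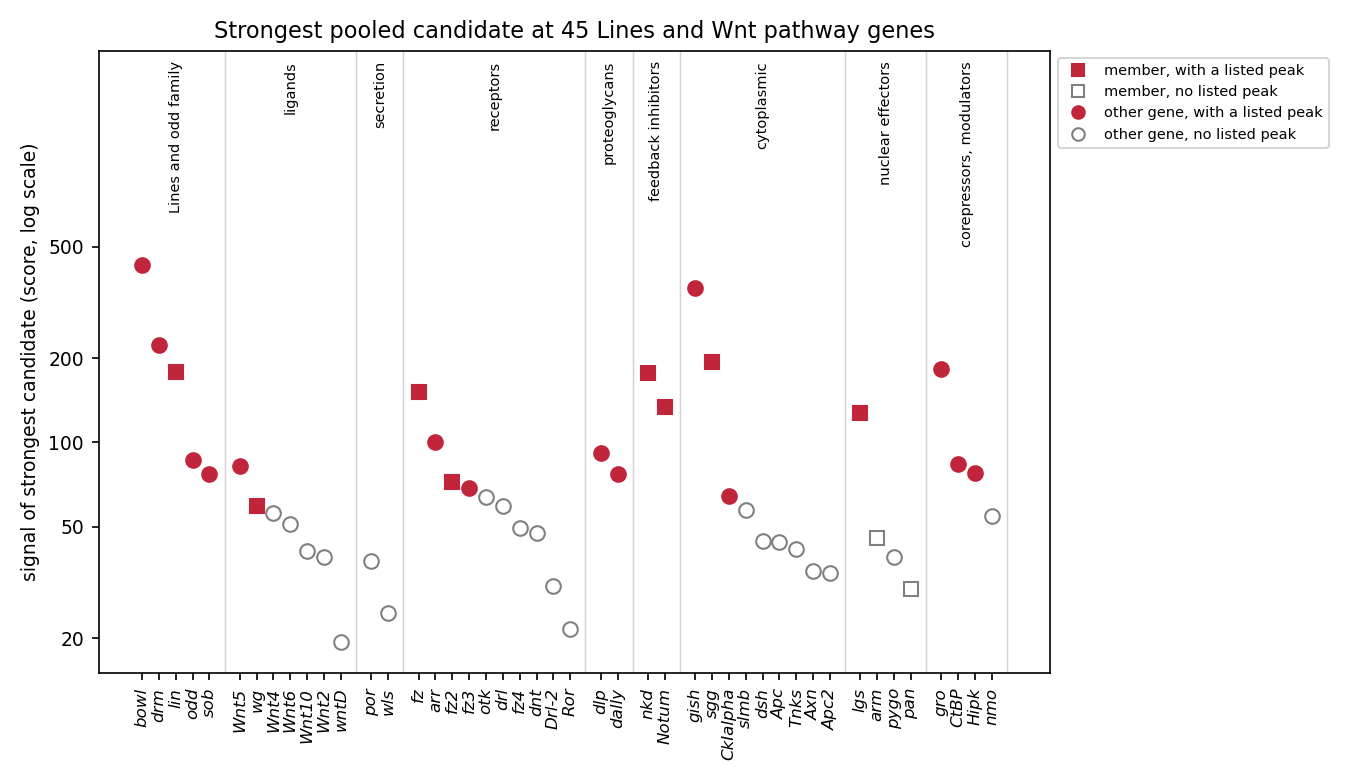
Signal of the strongest pooled candidate (vertical axis, score, log scale) at each of 45 genes, grouped by role and ordered within each group, with squares for the 10 genes described above, circles for the others, and red where the gene has a listed peak in the pooled list. The values run from 19.3 at wntD to 431 at bowl; at wg the strongest candidate (59.1) is not itself the listed peak.

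Over all genes, those most like lin in rank were found by summing the absolute differences in percent rank of the strongest candidate over the ranked lists of replicate 1, replicate 2 and the pooled data. The closest were numb (sum 0.0625), wde (0.0719) and tal-1A (0.0909). The likeness rests on 3 lists, and their values are not independent, since the pooled list joins both replicates.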

How the data were processed

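Per the labels, chromatin was sheared by sonication and the assembly is dm6. The authors deposited, for each replicate and for both pooled, a ranked list of candidates and a thresholded list. They also deposited a conservative thresholded list and a separate ranked list of 126986 candidates that holds its peaks. Which aligner and caller the authors ran is not given in the sources used here. Signal, as deposited, is a score without a stated scale. The deposited −log10 IDR is at least 2 at every listed peak; 89 pooled candidates at or above 2 are not in the pooled list. Without read counts the depth is unknown, and intervals cover counting error only.

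Summits were placed on Ensembl release 115 gene models (BDGP6.54), and sequence was read from RefSeq Release 6, whose chromosomes are long enough to hold every candidate. A summit was assigned to each protein-coding gene whose body holds it and to the gene of the nearest TSS, so a peak can count for more than 1 gene. Overlap means at least 1 bp. The assignment was checked against a direct search on made-up regions. Scripts used Python 3.11.15, pandas 2.3.3, numpy 2.4.6 and scipy 1.17.1. The members and lists were chosen with earlier results of these data known. Named were the 10 genes, the other listed genes with a pooled peak, the 3 genes closest to lin in rank, and, after their values were seen, listed genes without a peak. With 1 group and genes chosen on the lists, no test was run. Alternatives were other lists, each replicate alone, other assignment rules, word windows and promoter widths.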

Additional observations from a re-analysis of the deposited data

How the results depend on the processing

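Lin, nkd and Notum each had a peak, 3 of 3, in the main setting and in all 10 alternatives tried. The same held for sgg, which is in neither of the compared sets. Under those 10 alternatives the 10 genes gave 6 to 8 genes with a peak, against 8. The genes that dropped out were among lgs, wg, fz and fz2. The alternatives reuse lists that were known when the genes were chosen, so these counts are a description. Over all genes with a candidate, 13.8% had a peak in the main setting. The share was 10.6% in the conservative list, 11.2% in replicate 1's, 5.7% in replicate 2's and 7.93% at or above the median signal. For the other settings no share over all genes was taken. The ligand, receptor and TCF genes with a peak numbered 1 in the conservative list and 1 with peaks below the median signal set aside, against 3, and leaving out each replicate gave 1 to 3. Peaks at the 10 genes numbered 6 when the nearest TSS had to lie within 5 kb, against 10. The wider list of 45 genes gave 14 with peaks below the median signal set aside, against 22, and 10 to 20 when each replicate was left out. The cause of the change with replicate 1 left out was not tested; replicate 2's list holds 772 peaks against 1662 in replicate 1's. With the gene body only, the nkd call rests on the weaker intronic peak, which replicate 2 did not list, and the rank of its strongest candidate is 0.904%, against 0.208%. The strongest candidate of lgs fell to 37.0% in rank with the gene body only, since its peak lies outside the gene, and that of fz to 2.21% with the nearest TSS only. Precision is limited by unknown read depth and by 2 replicates. No paired analysis was possible because the labels give only 1 group.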

Other observations

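A pair of receptor genes had a peak outside the pooled list only. The conservative list held a peak at dnt, a gene of the Derailed family of Wnt5 receptors, whose strongest pooled candidate had a signal of 47.6 and a −log10 IDR of 1.25. Replicate 1's list held a peak at otk, which encodes a transmembrane Wnt coreceptor, whose strongest pooled candidate had a signal of 63.9 and a −log10 IDR of 1.98, just under the threshold. Neither gene had a peak in replicate 2's list.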
